A study of Homo sapiens with 4 samples.

Results

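The 74 ion channel genes described here are the rows of the deposited RNA-seq table whose symbols belong to the potassium (KCN), voltage-gated sodium (SCN), voltage-gated calcium (CACNA, CACNB and CACNG), TRPC, TRPM and TRPV, chloride (CLCN), anoctamin (ANO) and PIEZO families, out of 15279 named rows. Membership follows the symbol, the families themselves were picked with earlier results of these data known, and an antisense row, TRPM2-AS, was left out. Of the 74, 71 encode channels, transporters of these families or their partner subunits, and 3 do not: TRPC4AP, a protein first named as a TRPC4 partner, and the non-coding RNAs KCNQ1OT1 and KCNQ5-IT1. Expression was compared between MDA231-BR, a culture of MDA-MB-231Br cells labelled as breast cancer brain metastasis, and MDA231-P, the MDA-MB-231 breast cancer line. MDA-MB-231 is a triple-negative human line, and MDA-MB-231Br is a derivative of it that forms brain metastases in mice. Per the labels, both lines grew in DMEM containing 10% FBS. Each line is a single cell line with 2 libraries, called A and B in column order, and nothing in the labels says that they came from separate cultures, so p-values measure the spread between libraries, which may be technical.

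Ion channels let ions pass down their gradients through membranes. In cells that do not fire action potentials, such as breast cancer cells, potassium channels set the membrane potential and with it the driving force for calcium entry, and chloride channels and anoctamins take part in volume control and lipid scrambling. Voltage-gated sodium channels, best known from excitable cells, are also found in some cancer cells. Most voltage-gated channels are built from a pore subunit and partner subunits that set its gating and traffic.

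The libraries held 28107820 and 25835225 reads in named genes for MDA231-BR A and B, against 30771290 and 27554570 for MDA231-P A and B. The median absolute log2 difference between libraries of a line, over 14424 genes, was 0.377 in MDA231-BR and 0.26 in MDA231-P. Of the MDA-MB-231 markers, VIM, CD44, EGFR, AXL, CAV1 and KRT18 were present and summed to 8303 and 9819 CPM (reads relative to the library total) in MDA231-BR libraries, against 5969 and 5224 CPM in MDA231-P libraries. ERBB2, EPCAM, GATA3, CDH1 and ESR1, which are low in this line, summed to 49.4 and 64.3 CPM in MDA231-BR libraries, against 71.4 and 59.4 CPM in MDA231-P libraries.

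Of the 14 increases, 8 were genes of the potassium families, which held 23 of the 55 tested members. KCNN4, KCNS3, KCNK1, KCNK6, KCNAB2, KCNJ15, KCNQ3, SCN9A and ANO5 rose in MDA231-BR, while ANO6, CLCN4 and CLCN5 fell. A test was possible for 55 members that passed a filter on low counts (limma-trend on log2(normalized reads + 1), Benjamini-Hochberg adjustment over all 14424 genes, threshold 0.05). Of these, 14 rose, 6 fell and 35 did not pass, so 20 of 55 (36.4%) were called, against 14.4% of all genes tested. Higher calls made up 8.61% and lower calls 5.8% of all genes. The median log2 difference of the tested members was 0.32, against 0.01 for all tested genes, but it differed between the MDA231-BR libraries, at -0.02 in A and 0.68 in B. Both MDA231-BR libraries lay above both MDA231-P libraries in 26 of the 55 (31.7% of all genes tested) and below them in 15 (29.7% of all genes), and the lines overlapped in 14, whereas 61.3% of all genes did not overlap. The filter keeps a gene through the line where it is high, and 46 of the 55 reached it in both libraries of each line. Among those 46, 12 rose and 5 fell, but the share called among all genes that reached it in both lines was not computed. The other called genes, ANO5 and ANO2 among the increases and TRPM2 among the decreases, reached it in both libraries of a single line.

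**Figure D1:**
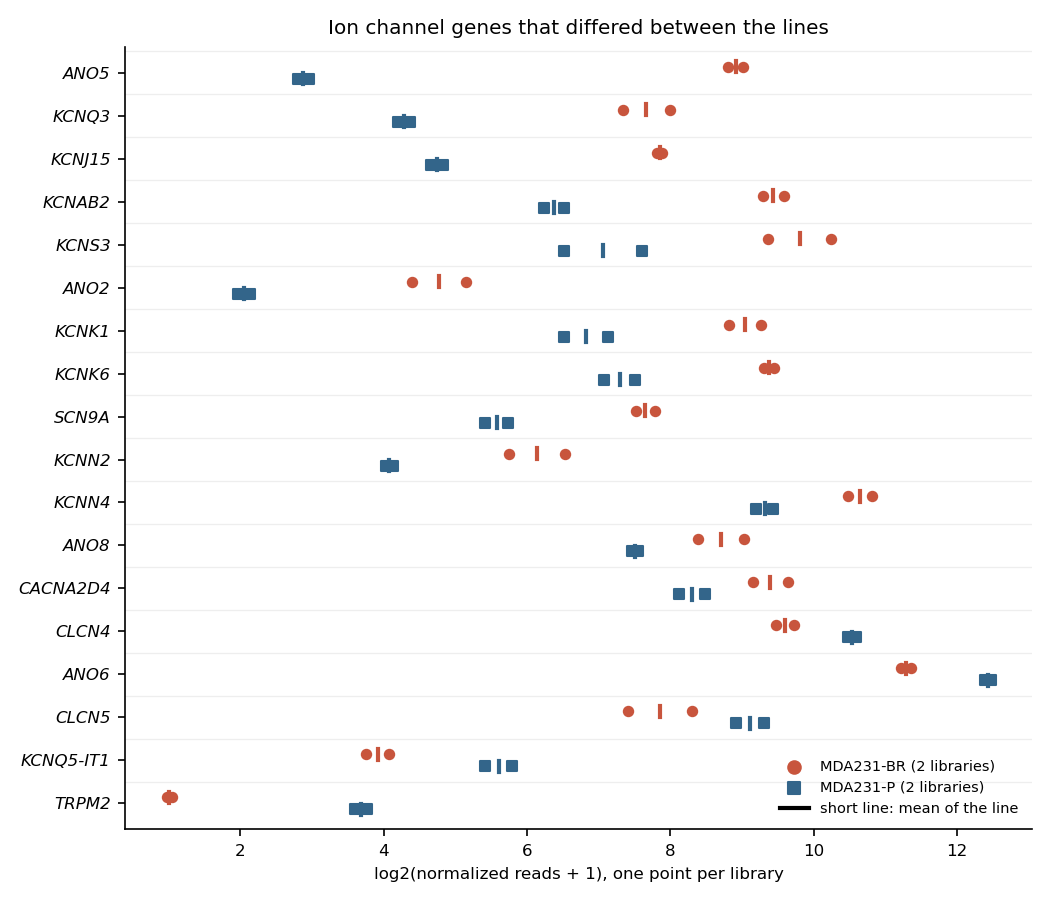
Values of 18 ion channel genes that passed the test, as log2(normalized reads + 1) with 1 point per library; circles are the 2 MDA231-BR libraries, squares the 2 MDA231-P libraries, and short vertical lines the means. In each of the 18 genes the libraries of the 2 lines do not overlap, which selection by a test on these same libraries favours. ANO5 is at the top and TRPM2 at the bottom of the range of differences.

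To show the DNA at the starts of genes that moved, promoter windows of RefSeq (GRCh38.p14, 250 bases before to 50 after the annotated start, all 5′ to 3′ on the gene's strand) are given for ANO5, the member with the largest increase, and for 4 called members whose windows held a searched motif. The reads were mapped to GRCh37, so these coordinates are not those of the deposited files, and an annotated start need not be the one used in these cells. Capitals mark a match on either strand. The AP-1 motif was searched as TGACTCA. The E-box was searched as CACGTG. The TATA box was searched as TATAAA, and none of these overlap in the windows shown. A match at any position was counted, so the letters need not be a working site. The TATA letters of KCNK1 and the AP-1 letters of KCNJ15 lie on the opposite strand.
ANO5 (chr11:22192356-22192655, plus strand): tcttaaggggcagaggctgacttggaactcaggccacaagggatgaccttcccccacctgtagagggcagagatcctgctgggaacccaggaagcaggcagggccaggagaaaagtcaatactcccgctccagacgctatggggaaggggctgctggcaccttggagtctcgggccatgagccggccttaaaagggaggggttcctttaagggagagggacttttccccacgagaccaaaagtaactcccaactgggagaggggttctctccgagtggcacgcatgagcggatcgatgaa
KCNJ15 (chr21:38272258-38272557, plus strand): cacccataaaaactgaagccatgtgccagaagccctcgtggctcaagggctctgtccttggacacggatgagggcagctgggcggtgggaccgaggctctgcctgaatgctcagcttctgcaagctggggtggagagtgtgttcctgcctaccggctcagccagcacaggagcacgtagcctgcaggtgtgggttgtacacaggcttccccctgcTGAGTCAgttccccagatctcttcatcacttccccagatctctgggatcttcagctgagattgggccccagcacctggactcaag
KCNK1 (chr1:233613856-233614155, plus strand): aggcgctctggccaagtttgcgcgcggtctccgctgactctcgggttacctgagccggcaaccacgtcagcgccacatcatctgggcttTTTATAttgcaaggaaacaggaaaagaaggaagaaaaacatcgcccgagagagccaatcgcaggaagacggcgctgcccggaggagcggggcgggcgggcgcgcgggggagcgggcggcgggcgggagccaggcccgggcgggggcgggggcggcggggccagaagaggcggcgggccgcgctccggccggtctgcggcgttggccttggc
KCNN4 (chr19:43780924-43781223, minus strand): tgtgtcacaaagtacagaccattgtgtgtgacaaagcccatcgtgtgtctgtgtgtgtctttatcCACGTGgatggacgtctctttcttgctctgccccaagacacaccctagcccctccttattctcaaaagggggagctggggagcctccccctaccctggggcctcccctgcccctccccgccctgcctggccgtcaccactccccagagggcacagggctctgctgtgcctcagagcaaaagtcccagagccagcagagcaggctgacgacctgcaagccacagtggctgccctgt
CLCN4 (chrX:10156725-10157024, plus strand): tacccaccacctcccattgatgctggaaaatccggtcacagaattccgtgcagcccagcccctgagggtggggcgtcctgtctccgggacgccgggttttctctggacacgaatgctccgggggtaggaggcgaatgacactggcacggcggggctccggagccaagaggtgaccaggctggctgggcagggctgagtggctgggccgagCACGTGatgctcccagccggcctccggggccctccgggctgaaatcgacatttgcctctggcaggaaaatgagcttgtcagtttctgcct
The windows differed widely in base composition. KCNK1 had 38 CpG dinucleotides at 70.7% GC and CLCN4 18 at 64.0% GC, whereas ANO5 had 9, and KCNJ15 and KCNN4 had 6 each. ANO2 and ANO6 also held the TATA letters. A window was found for 53 of the 74 members, with a median of 22 CpGs, against 26 for 10807 genes of the table. The AP-1 letters stood in 2 of 53 member windows (3.77%), against 3.12% of all, the E-box letters in 6 (11.3%), against 9.92%, and the TATA letters in 5 (9.43%), against 5.66%. Among the 10 called increases with a window, 1 held the AP-1 letters, 1 the E-box letters and 2 the TATA letters.

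Among the voltage-gated sodium channel genes, SCN9A, which encodes a pore subunit of pain-sensing neurons, had 182 and 219 normalized reads in MDA231-BR, against 41.8 and 52.4 in MDA231-P, without overlap (log2 difference 2.07 ± 0.341 SE, adjusted p = 0.00759). The call ended without MDA231-P library A (adjusted p = 0.0926) or B (0.0662). An antisense gene outside the table, AC010127.1, shares 8.17% of SCN9A's exon bases, and without a stated strand setting its reads cannot be told apart from those of SCN9A. SCN8A, another pore subunit gene, was too low to be tested, with 7 reads over both MDA231-BR libraries and 0 in MDA231-P. With the limit of 3 reads put in place of 0 the ratio was 2.59, which leaves out the counting error of the 7 reads.

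The called potassium channel genes moved mostly one way. Of 33 members of the potassium families, 23 were tested, 8 rose and 0 fell in the limma-trend test, and 15 did not pass. The median log2 difference of the 23 was 1.03. Called genes made up 34.8% of the 23, against 36.4% of all tested members and 14.4% of all genes tested. Higher calls alone made up 25.5% of all tested members and 8.61% of all genes, and lower calls 10.9% and 5.8%. The edgeR quasi-likelihood test on recovered reads called 8 higher and 1 lower. The lower one was KCNS1, which encodes an electrically silent subunit and had 4.8 and 8.48 normalized reads in MDA231-BR, against 26.4 and 24.3 in MDA231-P (log2 difference -1.83 by limma-trend, adjusted p = 0.0652, and edgeR adjusted p = 0.0458). Without MDA231-P library A, 4 potassium genes were called higher, without MDA231-P library B 6, without MDA231-BR library A 12, with 2 lower, and without MDA231-BR library B 8, with 1 lower.

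Among voltage-gated pore subunits, KCNS3 and KCNQ3 rose. KCNS3 encodes a silent subunit that changes the properties of other potassium channels when it joins them. It had 1215 and 661 normalized reads in MDA231-BR, against 90.4 and 194 in MDA231-P. The libraries within each line lay well apart, yet the lines did not overlap (log2 difference 2.75 ± 0.433 SE, adjusted p = 0.00628), and the difference ran from 2.20 to 3.29 when 1 library was left out. KCNS3 ranked 6 of 74 per length in MDA231-BR, at 11 ± 4.71 CPM per kilobase, and 16 in MDA231-P, at 1.71 ± 0.861 (SD, n = 2 each). KCNQ3, a subunit of the slow M-current of neurons, had 161 and 253 normalized reads in MDA231-BR, against 19.6 and 17.5 in MDA231-P (log2 difference 3.38 ± 0.396 SE, adjusted p = 0.00201). Its relative KCNQ5 did not pass, with 816 and 1347 normalized reads in MDA231-BR, against 1253 and 866 in MDA231-P (log2 difference 0.01, adjusted p = 0.988). The 2 lines overlap for KCNQ5. KCNC4, which encodes a fast voltage-gated channel, had a log2 difference of 0.77 (adjusted p = 0.134) and KCND1, of the A-type channels, -0.54 (adjusted p = 0.468).

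Calcium-activated and two-pore domain genes gave 4 of the 8 increases. KCNN4, the intermediate-conductance calcium-activated channel of epithelial and immune cells, was the most abundant potassium channel gene per length. It had 1425 and 1809.9 normalized reads in MDA231-BR, against 588 and 694 in MDA231-P (log2 difference 1.33 ± 0.249 SE, adjusted p = 0.0126), and ranked 3 of 74 per length in MDA231-BR and 6 in MDA231-P. KCNN2, a small-conductance calcium-activated channel, had 91.2 and 53.0 normalized reads in MDA231-BR, against 15.4 and 16.5 in MDA231-P (log2 difference 2.06 ± 0.459 SE, adjusted p = 0.0236). KCNMA1, the large-conductance channel, had 15.4 and 22.3 normalized reads in MDA231-BR, against 3.41 and 7.76 in MDA231-P, and did not pass (log2 difference 1.65, adjusted p = 0.117). For all 3 genes of this class the MDA231-BR libraries lay above the MDA231-P libraries, as for 31.7% of all genes tested. The KCNN4 call ended without MDA231-P library A (adjusted p = 0.119) or B (0.0816), and the KCNN2 call likewise (0.156 and 0.183).

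The two-pore domain channels carry background potassium currents. KCNK1 and KCNK6, close relatives within this family, rose by similar factors. KCNK1 had 613 and 450.4 normalized reads in MDA231-BR, against 90.4 and 139 in MDA231-P (log2 difference 2.22 ± 0.331 SE, adjusted p = 0.00499). KCNK6 had 631 and 696 normalized reads in MDA231-BR, against 134 and 181 in MDA231-P (log2 difference 2.08 ± 0.284 SE, adjusted p = 0.00359). For both genes every MDA231-BR library exceeded every MDA231-P library. Without MDA231-P library A the adjusted p was 0.0618 for KCNK1 and 0.0514 for KCNK6. The summed level of the 5 two-pore genes was 47.2 and 43.9 CPM in MDA231-BR, against 9.59 and 13.1 CPM in MDA231-P. KCNK12 (log2 difference 1.17, adjusted p = 0.167) and the mechanically gated KCNK2 (-0.06, adjusted p = 0.956) did not pass, and KCNK5 was read 0 times in MDA231-BR and 4 times in MDA231-P.

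KCNJ15, an inward rectifier that passes potassium more readily into the cell, had 235 and 225 normalized reads in MDA231-BR, against 27.3 and 24.3 in MDA231-P (log2 difference 3.11 ± 0.345 SE, adjusted p = 0.00159). The libraries of each line were close to each other for this gene. Its class held 2 other tested genes, KCNJ3 (log2 difference -0.36, adjusted p = 0.565) and KCNJ14 (0.10, adjusted p = 0.919), and the low-count rows KCNJ4 and KCNJ12, the second of which has a near-identical genomic copy and is uncertain. Among partner subunits, KCNAB2, a cytoplasmic beta subunit with an aldo-keto reductase fold, had 767 and 626 normalized reads in MDA231-BR, against 74.2 and 90.2 in MDA231-P (log2 difference 3.07 ± 0.291 SE, adjusted p = 0.000771). KCNIP3, the most abundant partner gene per length in MDA231-P, had a log2 difference of -0.65 (adjusted p = 0.172). The 6 partner genes other than KCNAB2 did not pass, with log2 differences from -0.76 in KCNIP4, a calcium-binding subunit of A-type channels, to 1.41 in KCNAB3. KCNAB1, the beta subunit gene nearest to the threshold, had 142 and 176 normalized reads in MDA231-BR, against 80.2 and 73.7 in MDA231-P (log2 difference 1.03, adjusted p = 0.0718).

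**Figure D2:**
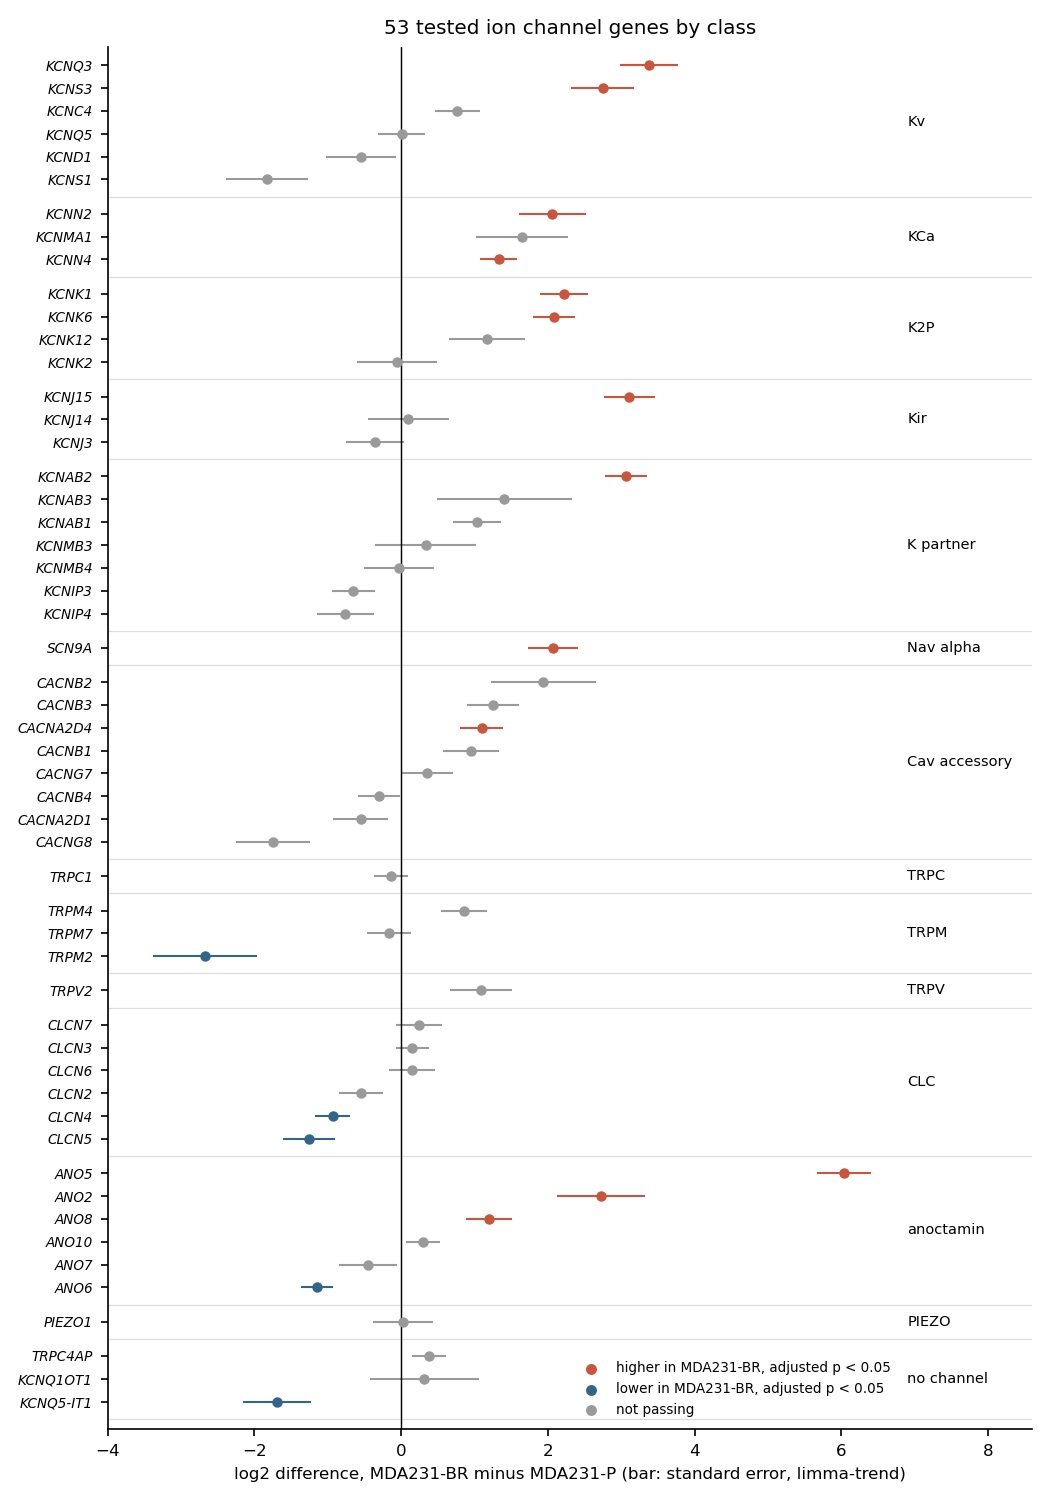
Log2 difference between MDA231-BR and MDA231-P with its standard error for 53 tested members, grouped by class; Kv, KCa, K2P and Kir are voltage-gated, calcium-activated, two-pore domain and inward rectifier potassium channels, and Nav and Cav are voltage-gated sodium and calcium channels. The 8 called potassium genes all lie to the right of 0, the 2 called CLC genes to the left, and anoctamins stand on both sides.

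Voltage-gated calcium channel genes were represented almost entirely by accessory subunits. The only pore subunit gene among the 74, CACNA1D, had no read in any library, and a count of 0 allows up to 3 reads. Other pore subunit genes had no named row, so their expression cannot be judged here. Of 11 accessory subunit genes 8 were tested, 1 rose and 0 fell. Called genes thus made up 12.5% of the 8, against 14.4% of all genes tested. CACNA2D4, an alpha2delta subunit known from photoreceptor synapses, had 568 and 799 normalized reads in MDA231-BR, against 276 and 358 in MDA231-P (log2 difference 1.10 ± 0.29 SE, adjusted p = 0.0418), and its call ended without the count filter (adjusted p = 0.0517) and without either MDA231-P library (adjusted p = 0.263 without A and 0.185 without B). CACNA2D1, the most abundant accessory gene per length in MDA231-P, had 222 and 476 normalized reads in MDA231-BR, against 496 and 457 in MDA231-P, and did not pass (log2 difference -0.55, adjusted p = 0.346). Close to the threshold were CACNB3, a cytoplasmic beta subunit (log2 difference 1.26, adjusted p = 0.0507), and CACNG8, an auxiliary subunit of AMPA receptors (-1.74, adjusted p = 0.054). With edgeR's quasi-likelihood test on recovered reads both passed (adjusted p = 0.0489 for CACNB3 and 0.0456 for CACNG8).

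The anoctamins held the largest increase and the most abundant decrease, per length, of the 74. ANO5, an anoctamin of intracellular membranes whose mutations cause muscular dystrophy, had 448 and 517 normalized reads in MDA231-BR, against 5.97 and 6.79 in MDA231-P (log2 difference 6.03 ± 0.37 SE, adjusted p = 0.000157). The MDA231-P values rest on 7 reads in each library; the ratio of normalized reads was 75.7, with an exact binomial 95% interval of 44.9 to 139 that covers counting error only. Of 6 muscle markers only MYH2 had a row, with 0 reads in MDA231-BR and 1 in MDA231-P; the other 5 were not analysed here, and the part of muscle genes in this result was not tested. ANO2, a calcium-activated chloride channel of sensory neurons, had 36 and 19 reads in MDA231-BR, against 4 and 3 in MDA231-P, a ratio of 8.72 (3.96 to 22.7), with an adjusted p of 0.0232 by limma-trend that became 0.13 without MDA231-P library A and 0.182 without B. ANO8, which tethers the endoplasmic reticulum to the plasma membrane, had 334 and 523 normalized reads in MDA231-BR, against 187 and 177 in MDA231-P (log2 difference 1.20 ± 0.312 SE, adjusted p = 0.0394). The ANO8 call ended without the count filter (adjusted p = 0.0508), without MDA231-BR library B (0.0507) and without either MDA231-P library (0.191 without A and 0.293 without B). The gene overlaps DDA1 on the opposite strand over 1.59% of its exon bases, and DDA1 itself was higher in MDA231-BR (log2 difference 0.88, adjusted p = 0.0489).

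ANO6, the calcium-activated phospholipid scramblase, fell. It had 2382 and 2625 normalized reads in MDA231-BR, against 5689 and 5375 in MDA231-P (log2 difference -1.14 ± 0.214 SE, adjusted p = 0.0126), without overlap. The call ended without MDA231-P library A (adjusted p = 0.12) or B (0.115). Per length it ranked 5 of 74 in MDA231-BR, at 11.2 ± 0.653 CPM per kilobase, and 2 in MDA231-P, at 25.4 ± 1.34 (SD, n = 2 each). ANO10, the other abundant anoctamin, had 2728 and 2233 normalized reads in MDA231-BR, against 2074 and 1935 in MDA231-P, which did not pass (log2 difference 0.30, adjusted p = 0.396). The calcium-activated chloride channel gene ANO1 was too low to be tested, with 6 and 46 reads in MDA231-BR, against 5 and 0 in MDA231-P. The summed level of the 7 anoctamin genes was 221 and 219 CPM in MDA231-BR, against 305 and 282 CPM in MDA231-P.

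All 6 CLC genes were tested, 2 fell and 0 rose. Lower calls thus made up 33.3% of a class of only 6, against 5.8% of all genes tested. CLCN4 and CLCN5, which encode chloride-proton exchangers of endosomes, both lie on the X chromosome. CLCN4 had 709.7 and 851 normalized reads in MDA231-BR, against 1537 and 1433 in MDA231-P (log2 difference -0.93 ± 0.235 SE, adjusted p = 0.0359). CLCN5 had 170.0 and 316 normalized reads in MDA231-BR, against 633 and 485 in MDA231-P (log2 difference -1.25 ± 0.351 SE, adjusted p = 0.0498). The CLCN5 difference was -0.81 without MDA231-BR library A and -1.70 without library B, and its call ended without the count filter (adjusted p = 0.0633) and at a pseudocount of 0.5 (adjusted p = 0.0503). Neither CLCN4 nor CLCN5 was called without MDA231-P library A or B (adjusted p from 0.207 to 0.281). CLCN3, another endosomal exchanger and the most abundant CLC gene per length, did not pass, at 20.3 ± 3.17 CPM per kilobase in MDA231-BR and 18.6 ± 0.191 in MDA231-P (SD, n = 2 each, log2 difference 0.15, adjusted p = 0.68). CLCN7, a lysosomal exchanger, also did not pass (log2 difference 0.25, adjusted p = 0.629).

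TRP channels and PIEZO1 gave a single call, 1 of 5 tested TRP genes (20%, against 14.4% of all genes tested). TRPM2, a cation channel opened by ADP-ribose and oxidative stress, had 1 and 1 reads in MDA231-BR, against 13 and 13 in MDA231-P (limma-trend log2 difference -2.67 ± 0.709 SE, adjusted p = 0.042). The ratio of normalized reads was 0.0854, with a counting interval of 0.00982 to 0.341, and DESeq2 did not call it (adjusted p = 0.131), nor did limma-trend with a pseudocount of 5 (adjusted p = 0.061), without MDA231-P library A (0.243) or without B (0.343). TRPM2-AS, its antisense partner, had no read in the 4 libraries. TRPM7, a magnesium-permeable channel with a kinase domain and the most abundant TRP gene per length, had 1547 and 2761 normalized reads in MDA231-BR, against 2363 and 2255 in MDA231-P (log2 difference -0.16, adjusted p = 0.745). TRPC1 had 705 and 704 normalized reads in MDA231-BR, against 737 and 816 in MDA231-P (log2 difference -0.14, adjusted p = 0.719). TRPM4, a calcium-activated cation channel, and TRPV2 had log2 differences of 0.86 and 1.09 without passing (adjusted p = 0.0997 and 0.124). PIEZO1, the mechanically gated cation channel, had 1066 and 2612 normalized reads in MDA231-BR, against 1956 and 1369.7 in MDA231-P, so that the lines overlapped fully (log2 difference 0.03, adjusted p = 0.971).

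**Figure D3:**
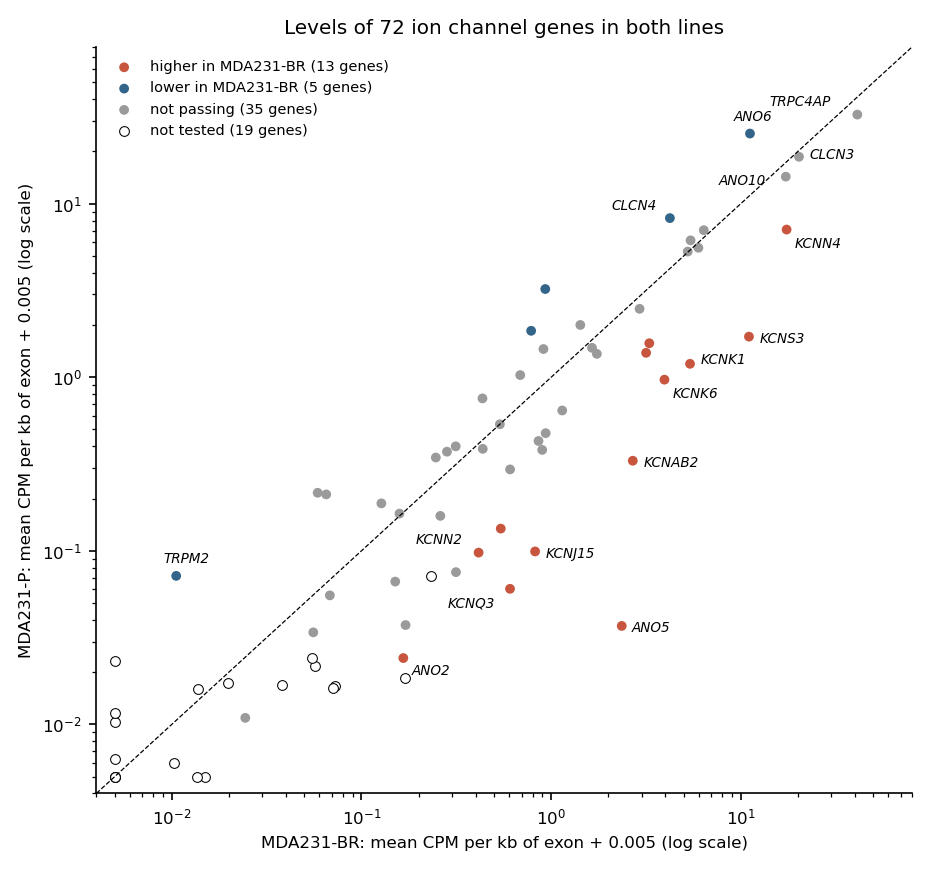
Mean level of 72 of the genes in CPM per kilobase of exon, MDA231-BR on the horizontal and MDA231-P on the vertical axis, both logarithmic after adding 0.005; the dashed line marks equal levels. Red points below the line are 13 increases, from ANO2 at 0.161 to KCNN4 at 17.4 CPM per kilobase in MDA231-BR, and blue points above it are 5 decreases.

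As a family these genes were expressed at low levels. The median member had 0.42 CPM per kilobase of exon in MDA231-BR and 0.25 in MDA231-P, against 4.51 and 4.38 for the median gene of the table in the same lines. The most abundant row per length was TRPC4AP, at 41.2 ± 0.107 CPM per kilobase in MDA231-BR and 32.6 ± 6.41 in MDA231-P (SD, n = 2 each). Next in MDA231-BR came CLCN3 (20.3), KCNN4 (17.4), ANO10 (17.3), ANO6 (11.2) and KCNS3 (11), all in CPM per kilobase. KCNN4 and ANO10 differed there by less than their spread, as did ANO6 and KCNS3. In MDA231-P the order began with TRPC4AP (32.6), ANO6 (25.4), CLCN3 (18.6), ANO10 (14.3), CLCN4 (8.26) and KCNN4 (7.09), while KCNS3 stood at rank 16. The 74 genes together made up 1150 and 1307 CPM in MDA231-BR, against 1118 and 1015 CPM in MDA231-P. The 19 untested members had a median of 7 reads over the 4 libraries and at most 69. TRPV6, KCNH2 and CACNA1D had none at all.

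The MDA231-BR libraries differed from each other more than the MDA231-P libraries did. Over the 55 tested members the median absolute log2 difference was 0.523 between MDA231-BR libraries and 0.25 between MDA231-P libraries, and it exceeded 1 in 9 and 2 members in the same order. Library B was the higher one in 7 of those 9. KCNAB3, a potassium channel beta subunit, had 7.68 and 69.9 normalized reads in MDA231-BR A and B, against 10.2 and 6.79 in MDA231-P. CACNB2, a calcium channel beta subunit, had 15.4 and 65.7 in MDA231-BR, against 8.53 and 6.79 in MDA231-P. KCNQ1OT1, a nuclear non-coding RNA of the imprinted KCNQ1 locus, had 34.6 and 219 in MDA231-BR, against 74.2 and 66.0 in MDA231-P. None of the 3 passed (adjusted p = 0.33, 0.107 and 0.796). With MDA231-BR library A left out, their log2 differences were 2.92, 2.95 and 1.63. Those values rest on library B alone. The 3 genes are shown because library B was high, so the size of these differences follows from that choice. The 20 called members all differed from the MDA231-P mean in the same direction in both MDA231-BR libraries. They were called from these same libraries, so this follows largely from their selection. Over all genes the median log2 difference from the MDA231-P mean was 0.01 in MDA231-BR library A and 0.03 in B.

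**Figure D4:**
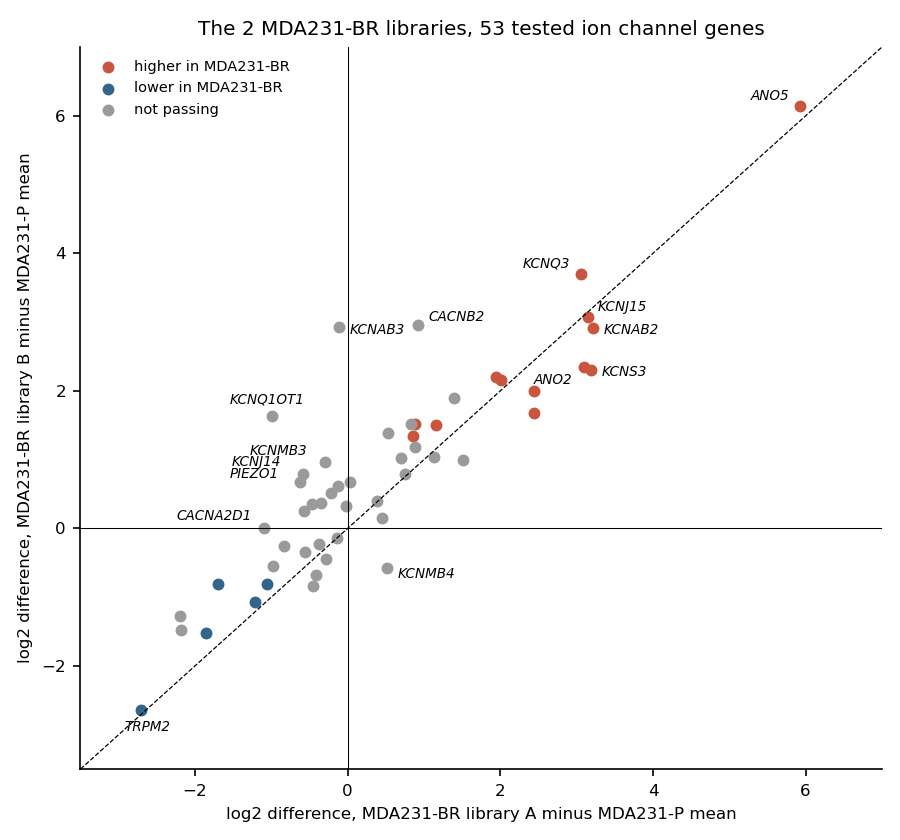
Log2 difference from the MDA231-P mean in MDA231-BR library A (horizontal) and library B (vertical) for 53 tested members; the dashed line marks equal differences. Called genes lie in the upper right and lower left corners, whereas KCNAB3, CACNB2 and KCNQ1OT1 lie well above the line.

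KCNQ5-IT1, a non-coding transcript within an intron of KCNQ5, fell while its host did not pass. It had 12.5 and 15.9 normalized reads in MDA231-BR, against 41.8 and 54.3 in MDA231-P (log2 difference -1.69 ± 0.46 SE, adjusted p = 0.0456). DESeq2 did not call it (adjusted p = 0.0692), and limma-trend did not without MDA231-P library A (0.221) or B (0.424). Reads from unspliced KCNQ5 RNA cannot be told apart from this transcript in the table.

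Genes next to the called members were compared with them. The 40 nearest tested neighbours of the 20 called members were taken by RefSeq order on GRCh38.p14. Of these, 7 were called in the same direction, 1 in the opposite direction and 32 were not called. Over all genes tested, 8.61% were called higher and 5.8% lower, or 14.4% in either direction. KCNQ5, the host of KCNQ5-IT1, is among the 40. ANO5 stood between PRMT3 (log2 difference -0.16, adjusted p = 0.64) and FANCF (0.51, adjusted p = 0.232). ANO8 had called neighbours on both sides, DDA1 and GTPBP3. TRPM2 lay beside LRRC3, which also fell (log2 difference -4.81, adjusted p = 0.00163), and KCNQ3 beside LRRC6, which also rose (2.58, adjusted p = 0.00359). KCNJ15 was the exception in direction, with ETS2 lower in MDA231-BR (log2 difference -1.08, adjusted p = 0.0259).

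Other channels, pumps and calcium signalling genes were called at a rate nearer to the background. Of 116 tested genes in 9 lists, 10 rose and 10 fell (17.2% called, against 14.4% of all genes), with a median log2 difference of 0.09. Store-operated and endoplasmic reticulum calcium channels had 1 of 15 tested genes higher, the ryanodine receptor gene RYR2 (log2 difference 2.47, adjusted p = 0.0317), and 0 lower. Endolysosomal and polycystin channels had 1 of 9 higher, TPCN1, a two-pore channel of endolysosomes (1.30, adjusted p = 0.0149), and 0 lower. Anion channels outside the CLC and anoctamin families had 2 of 15 higher, LRRC8B, a volume-regulated channel subunit (1.81, adjusted p = 0.00376), and CLIC2 (2.38, adjusted p = 0.0149), and 3 lower, among them CLIC3 (-3.17, adjusted p = 0.00628) and CLIC5 (-2.20, adjusted p = 0.00409). Ligand-gated, acid-sensing and epithelial sodium channels had 1 of 8 higher and 1 lower. P2RX7, the ATP-gated channel, had 15 and 11 reads in MDA231-BR and 0 in MDA231-P (adjusted p = 0.0175). With 3 reads put in place of 0 the ratio was 9.62, which leaves out the counting error of the MDA231-BR reads. ASIC1, an acid-sensing channel, fell (log2 difference -1.56, adjusted p = 0.0249). The list of mechanosensitive, proton, pacemaker and cyclic nucleotide-gated channels and their relatives had 0 of 11 higher and 3 lower. The lower ones included TMC8 (log2 difference -3.44, adjusted p = 0.0174) and CNGB1 (-3.23, adjusted p = 0.0068).

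Genes that serve channels moved in both directions, as did all genes tested (8.61% called higher and 5.8% lower). Partners, traffic and turnover genes had 4 of 17 higher and 2 lower (35.3% called, against 14.4% of all genes tested). The anchor ANK2 (log2 difference 1.82, adjusted p = 0.00554) and the syntrophin SNTB1 (1.61, adjusted p = 0.00591) rose, and the caveolin CAV1 (-1.43, adjusted p = 0.00523) fell. NEDD4L, a ubiquitin ligase known to remove epithelial sodium channels from the membrane, also rose (1.28, adjusted p = 0.0137). Calcium-calmodulin and calcineurin-NFAT genes had 1 of 20 higher, the transcription factor NFATC4 (4.21, adjusted p = 0.000788), and 1 lower, the kinase gene CAMK4 (-0.84, adjusted p = 0.0464). Called genes made up 10% of these 20. None of the 12 tested sodium-potassium and calcium ATPase genes passed, ATP2A2, the highest of them in CPM in MDA231-BR, having a log2 difference of 0.99 (adjusted p = 0.0709). None of 9 genes of the REST repressor complex passed either. HDAC2, the highest of them in CPM though not per length, had a log2 difference of -0.05 (adjusted p = 0.906). REST, which holds down neuronal sodium channel genes outside neurons, had 2673 and 3157 normalized reads in MDA231-BR, against 2835 and 2365 in MDA231-P (log2 difference 0.17, adjusted p = 0.655).

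Several channels of these families are known from neurons, so markers of brain cells were examined beside them. The 3 neuron markers with a row, SYT1, SYP and GAD1, summed to 15.2 and 26.5 CPM in MDA231-BR, against 6.82 and 9.29 CPM in MDA231-P. Of the 3, GAD1 rose, and SYT1 did not pass (log2 difference 1.31, adjusted p = 0.0791). SYP went the other way without passing (log2 difference -0.67), with both MDA231-BR libraries below both MDA231-P libraries. The 3 astrocyte markers with a row summed to 54.1 and 45.8 CPM in MDA231-BR, against 14.3 and 18.4 CPM in MDA231-P, with GJA1, which rose, giving most of the sum in MDA231-BR but not in MDA231-P. SLC1A3, of the same list, had 2.70 and 5.15 CPM in MDA231-BR, against 7.12 and 10.4 CPM in MDA231-P, and did not pass (log2 difference -1.16, adjusted p = 0.0918). The 2 oligodendrocyte markers summed to 139 and 146 CPM in MDA231-BR, against 88.7 and 95.4 CPM in MDA231-P, all of it from MBP, which did not pass, while MAG had no read. The microglial and macrophage marker with a row, CSF1R, gave 1.25 and 2.01 CPM in MDA231-BR, against 10.0 and 12.6 CPM in MDA231-P. The 3 endothelial markers summed to 26.6 and 30.0 CPM in MDA231-BR, against 4.78 and 8.53 CPM in MDA231-P, with KDR, which rose, giving most of the sum in MDA231-BR and PECAM1 most of it in MDA231-P, and CDH5 at 5 reads in each line. The other markers of these lists were not analysed here, and their part in the channel results was not tested.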

How the data were processed

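RNA-seq of 2 libraries of MDA231-BR and 2 of MDA231-P was used. Per the submitters' processing notes, HISAT2, featureCounts and DESeq2 were used with GRCh37; versions, annotation and strand setting: not given in the sources used here. The authors deposited a signal per gene: reads divided by a size factor per library. Every value was a whole multiple of 1 step, within 0.01 reads (100% of values), so whole reads were recovered; edgeR's quasi-likelihood test on them called 2228 genes. A read is worth 0.0325 to 0.0387 CPM.

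Columns name only the line, so letters follow column order. The 67 unnamed rows (0.031% to 0.0369% of reads) were left out, and 20 rows with names turned into dates were not named. Replicates were not copies (chi-square per degree of freedom 121.9 for the MDA231-BR pair and 60.7 for the MDA231-P pair). Of 15279 named rows, 14424 passed filterByExpr (minimum count 10, total 15). The main test was limma-trend on log2(value + 1), MDA231-BR minus MDA231-P, which understates changes of low genes. In a run on simulated data it missed most of the smallest changes put in, so genes that did not pass may still differ. Levels between genes used CPM per kilobase of merged exons in GENCODE v29, by symbol (15227 of 15279 matched). Neighbours and promoter windows came from RefSeq GRCh38.p14.

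Some items are not reported here, by name or in figures, but stay in counts and fits. Otherwise all called members are named; per class, the most abundant 2 per length, and per list up to 2 increases and 2 decreases of at least 1 CPM, or the most abundant gene. KCNS1, CACNB3, CACNG8, KCNAB1, KCNAB3, CACNB2, KCNQ1OT1, P2RX7, NEDD4L, REST and others that did not pass were chosen after their values were seen. Members and lists were chosen with earlier results of these data known. Protein sequences were not used here. Software was limma 3.58.1, DESeq2 1.42.0 and edgeR 4.0.16 under R 4.3.3, with Python 3.11.15.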

Additional observations from a re-analysis of the deposited data

How the results depend on the processing

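With all 4 libraries the count of called ion channel genes lay between 17 and 23 under 9 alternatives: edgeR, DESeq2 and limma-voom on recovered reads, pseudocounts of 0.5 and 5, no filter, a stricter filter, library-total scaling and TMM scaling. As shares, 23.9% (no filter) to 43.5% (stricter filter) of tested members were called, while over all genes the share ran from 12.3% (no filter) to 20.2% (DESeq2). None reversed a called gene, and 15 of the 20 kept their call under each of the 9 that could test them; ANO8, CACNA2D4, CLCN5, KCNQ5-IT1 and TRPM2 did not. Another scaling moved the median of all genes by no more than -0.0373 on the log2 scale. Leaving out 1 library in turn, the count ran from 6 (of 55, 10.9%, against 2.92% of all genes, without MDA231-P library A) to 32 (58.2%, against 36.4%, without MDA231-BR library A), with 7 (12.7%, against 2.97%) without MDA231-P library B and 23 (41.8%, against 21.8%) without MDA231-BR library B. Over all genes it ran from 421 to 5257, and over the other channel, pump and calcium signalling genes from 2 to 42. Such fits have a single library in 1 line, which is assumed to vary like the pair that is left. Only ANO5, KCNAB2, KCNJ15, KCNQ3 and KCNS3 were called in all 4 of those fits. No call among the 6 decreases held without MDA231-P library A or B. No paired analysis was possible because the columns carry no replicate numbers. Depth limits the low genes: TRPM2, ANO2 and the MDA231-P value of ANO5 rest on 14 reads a line or fewer in the lower line.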
